A study of Sus scrofa with 207 samples.

Results

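Splicing factors and heterogeneous nuclear ribonucleoproteins (hnRNPs) were examined in muscle of 207 crossbred pigs. A probe set was a member when its only gene symbol in the array annotation began with SRSF, SFRS, HNRNP, SNRP, SF3A, SF3B, U2AF or PRPF, or was SON. This gave 92 of 10069 probe sets with a single symbol, for 57 of 6765 genes, and each gene was represented by the probe set with the highest mean over the 207 arrays. The 57 genes fell into 11 SR proteins, 17 hnRNPs, 10 small nuclear ribonucleoprotein (snRNP) proteins, 9 U2-associated proteins, 9 PRPF proteins and SON.

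All animals formed 1 group, commercial pigs of the herd that the labels name as crosbred Pix(DLxDE), each with 1 Affymetrix Porcine Genome Array of muscle collected at slaughter (mean end weight 110 kg). The labels give no sire, sex or slaughter day as used here, and they describe each array as its own animal, so p-values measure the spread between animals. Each animal carried 2 traits measured on the longissimus muscle. Drip loss is the weight that a meat sample taken 24 hours after death lost when hung in a bag at 4 °C for 48 h, and it averaged 5.37 ± 2.21% (SD, n = 207) with a lowest, median and highest value of 1.45, 5.26 and 10.82%. Fat area at the rib averaged 15.0 ± 3.15 cm2 (SD, n = 207 less 8 animals without a value) and ran from 8.1 through a median of 14.5 to 26.7 cm2.

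Introns are removed from pre-mRNA by the spliceosome, whose core consists of small nuclear RNAs bound by Sm proteins and by proteins specific to each particle. SR proteins, which carry arginine and serine rich tails, mostly promote the recognition of exons, whereas many hnRNPs coat nascent transcripts and can block or promote the use of a splice site. The U2-associated proteins recognise the branch point and the 3′ splice site, the PRPF proteins act in the assembly and catalytic steps, and SON is a large protein of nuclear speckles. Many SR protein and hnRNP genes are known to limit their own expression through alternative exons that lead to decay of the transcript. In bulk muscle, fewer cells of a type and less RNA per cell cannot be told apart.

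The tissue label was set against marker genes, as a description, since levels of different probe sets are not on a common scale. Of 12 skeletal muscle markers 9 were measured, with mean log2 values of 12.71 to 14.14. Lists for other cell types had lower means, at most 7.37 for macrophage, 6.39 for lymphocyte, 9.21 for endothelial, 7.64 for blood cell, 6.65 for satellite cell, 8.89 for nerve and Schwann cell, 10.72 for adipocyte and 11.29 for fibroblast markers. Array medians lay between 5.96 and 6.18 log2 units. On 24 arrays the values resembled those of the other arrays poorly, with a median r more than 3 scaled MAD under the typical one, and drip loss averaged 4.2 ± 1.5% in their animals (SD, n = 24) and 5.53 ± 2.25% in all others.

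Most members lay well above the floor of the deposited values. The mean of 54 of the 57 exceeded 6.10, the median over all tested probe sets, a comparison that the choice of the brightest probe set of each gene favours. SRSF12 alone had values at the floor of 4 on the deposited log2 scale, in 37 animals. The values are probe set intensities on a log2 scale, so levels of different genes are not on a common scale and serve here only to show how far each stood above the floor. Class medians of the mean log2 value were 9.69 for the hnRNPs, 8.65 for the U2-associated proteins, 8.61 for the SR proteins, 8.34 for the snRNP proteins and 7.28 for the PRPF proteins.

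**Figure D1:**
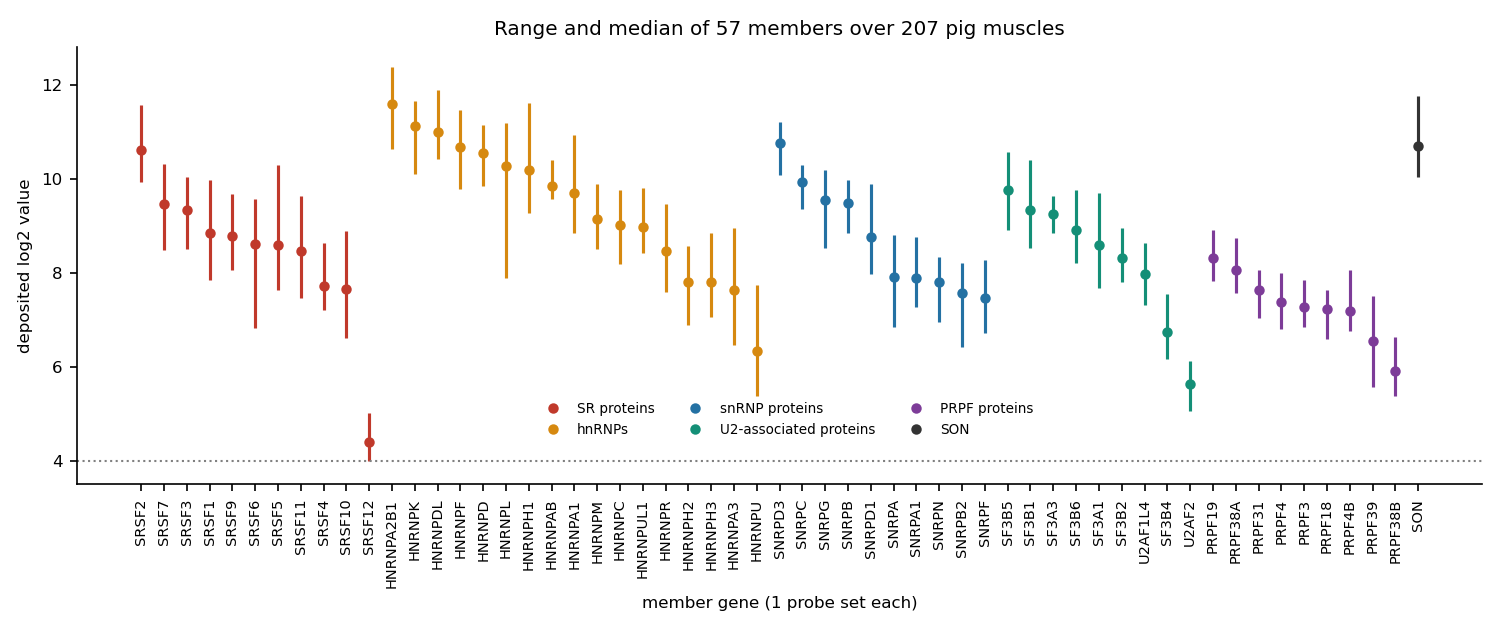
Deposited log2 values of the 57 members, grouped by class, with a dot at the median and a line from the lowest to the highest of the 207 animals. SRSF12 touches the floor of 4 (dotted line), and HNRNPL has the longest line, from 7.89 to 11.18.

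The classes differed in how much they varied between animals. The median SD over animals was 0.30 for SR proteins, 0.26 for hnRNPs, 0.24 for snRNP proteins, 0.21 for U2-associated proteins and 0.19 for PRPF proteins, all on the log2 scale. The median SR protein had an SD above that of 72.3% of the 6765 genes, and the median PRPF protein above that of 16.6%. The steadiest members were SF3A3, a subunit of the SF3a complex, with an SD of 0.13 that exceeded 0.917% of genes, SNRPC, the U1 snRNP protein that helps to pair U1 with the 5′ splice site (SD 0.15), and HNRNPAB (SD 0.15).

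HNRNPL, which binds CA-rich RNA and regulates alternative exons, varied most. Its lowest, median and highest log2 values were 7.89, 10.26 and 11.18, and its SD of 0.62 was larger than that of 97.4% of genes. The spread was one-sided, with quartiles of 9.78 and 10.57 and 9 animals below 9. Among SR proteins, SRSF5, first described in rat liver cells as an insulin-induced gene, varied most, with values of 7.63, 8.59 and 10.29 and an SD of 0.45.

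The first comparison asked which members tracked drip loss, the trait that describes how poorly meat holds water. Of the 57 genes 5 passed, that is, had an adjusted p under 0.05 over all 23935 probe sets in limma. The SR protein SRSF2 and the hnRNPs HNRNPU and HNRNPDL fell with drip loss, whereas PRPF31 and U2AF1L4 rose. The members that passed made up 8.77%, against 6.08% of all 6765 genes, and in each direction the shares were 5.26% against 2.11% lower and 3.51% against 3.96% higher. These shares rest on 3 and 2 genes and lie near those of all genes, so the count of 5 is no result about the members as a set.

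SRSF2, the speckle protein also called SC35, which binds exonic enhancers, ranged from 9.92 through a median of 10.60 to 11.56 log2 units over the 207 animals. Its mean was 10.63 ± 0.28 in the lower tertile of drip loss, 10.62 ± 0.28 in the middle and 10.53 ± 0.21 in the upper tertile (SD, n = 69 each). The tertiles overlapped widely, and their means differed by less than 1 SD, as they did for all members that passed. With drip loss SRSF2 fell, at a slope of -0.055 ± 0.018 log2 units per SD (SE, n = 207, limma adjusted p = 0.0471), or -3.76% per SD.

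HNRNPU, a scaffold protein that binds RNA and chromatin, had values of 5.38, 6.34 and 7.73 (lowest, median, highest). Its tertile means were 6.42 ± 0.33, 6.34 ± 0.34 and 6.26 ± 0.30 (lower, middle and upper tertile, SD, n = 69 each), a steady descent over overlapping groups. Its slope of -0.074 ± 0.022 (SE, n = 207, limma adjusted p = 0.0328), -4.99% per SD, was the steepest among the members that passed.

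HNRNPDL, a relative of HNRNPD that is linked to a human limb-girdle muscular dystrophy, had values of 10.42, 11.00 and 11.89. Its tertile means of 11.03 ± 0.25, 11.00 ± 0.23 and 10.95 ± 0.19 (lower, middle and upper tertile, SD, n = 69 each) also descended, with a slope of -0.050 ± 0.015 (SE, n = 207, limma adjusted p = 0.0365). A second probe set of this gene, at a mean of 8.38, had a slope of -0.033 ± 0.013 and did not pass.

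PRPF31, a U4/U6 snRNP protein needed to join the particles into the tri-snRNP, had values of 7.04, 7.64 and 8.06. It averaged 7.61 ± 0.20, 7.63 ± 0.18 and 7.68 ± 0.17 (lower, middle and upper tertile, SD, n = 69 each) and rose with drip loss, at 0.044 ± 0.013 log2 units per SD (SE, n = 207, limma adjusted p = 0.0246). U2AF1L4, a relative of the small U2AF subunit that reads the 3′ splice site, had values of 7.32, 7.97 and 8.63. Its means were 7.90 ± 0.20, 7.94 ± 0.23 and 7.995 ± 0.17, ascending over overlapping tertiles. Its slope was 0.050 ± 0.014 (SE, n = 207, limma adjusted p = 0.0208), or 3.54% per SD.

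**Figure D2:**
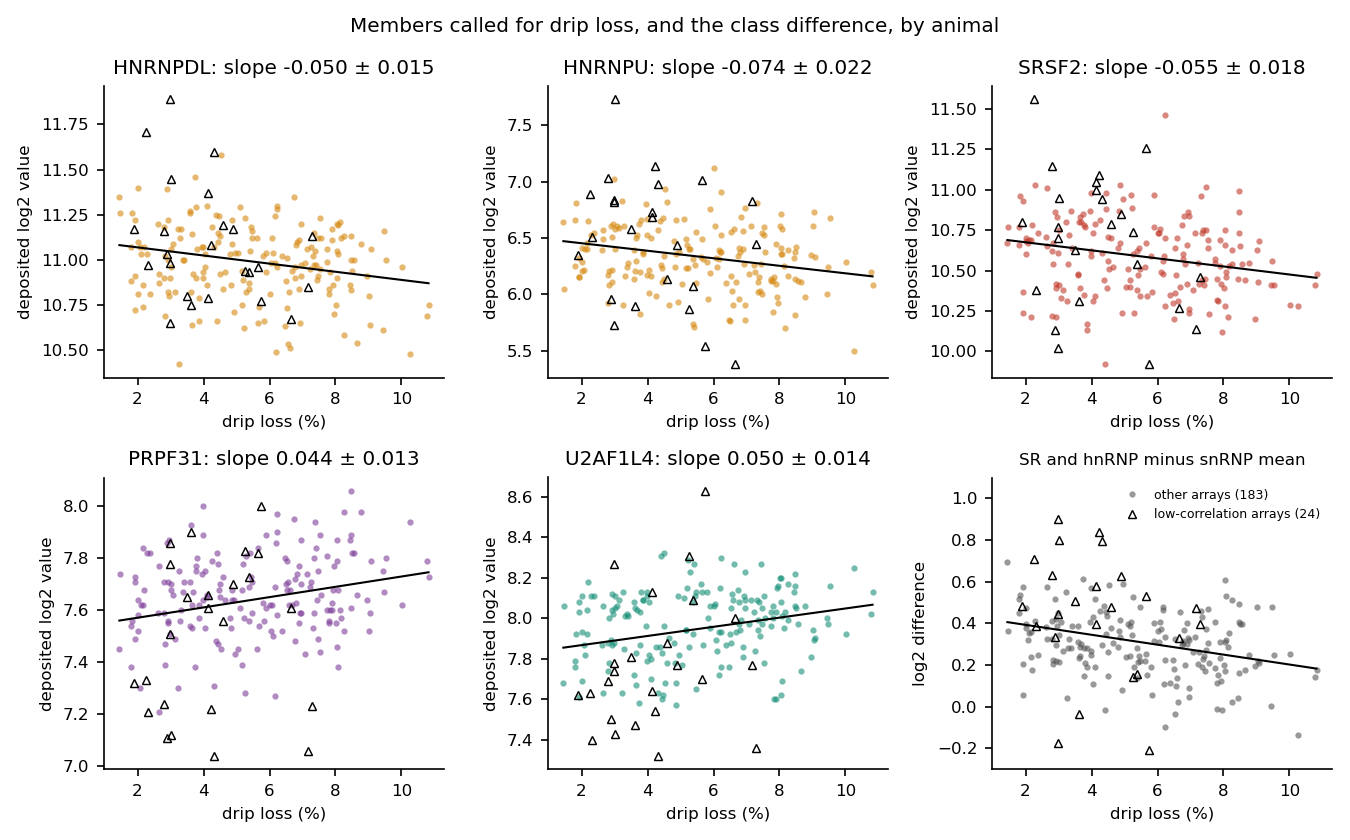
Log2 values of the 5 members that passed for drip loss, and the SR and hnRNP mean minus the snRNP mean, against drip loss in percent, with 1 point per animal and the least-squares line over all 207. Open triangles mark the 24 arrays of low correlation, whose animals averaged 4.2 ± 1.5% drip loss against 5.53 ± 2.25% for the rest.

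None of the 5 passed with every setting. With blocks of 100 title numbers as a covariate the adjusted p values lay between 0.112 for PRPF31 and 0.516 for SRSF2, and without the 24 low-correlation arrays between 0.115 and 0.202. The signs held in both, and with blocks the slopes were 0.041 for PRPF31, 0.042 for U2AF1L4, -0.039 for HNRNPDL, -0.055 for HNRNPU and -0.026 ± 0.017 for SRSF2. With 5 principal components as covariates they were nearer 0, at 0.010 ± 0.011 for PRPF31, 0.013 ± 0.012 for U2AF1L4, -0.020 ± 0.014 for HNRNPDL, -0.031 ± 0.019 for HNRNPU and -0.010 ± 0.015 for SRSF2. Adjusted p in limma then lay between 0.740 and 0.918.

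The 10 title-number blocks, each of at least 10 animals, accounted for 26.6% of the variance of SRSF2, 17.6% of that of HNRNPDL, 15.9% of that of U2AF1L4, 10.2% of that of HNRNPU and 7.13% of that of PRPF31. Within blocks the correlation with drip loss was r = 0.223 for PRPF31, which was positive in 9 of 10 blocks, and 0.210 for U2AF1L4, also positive in 9. It was -0.183 for HNRNPDL, -0.168 for HNRNPU and -0.113 for SRSF2, negative in 8, 9 and 8 of 10 blocks. U2AF1L4 also correlated with how typical an array was, at r = 0.361 with the array's median correlation, and PRPF31 at 0.245, whereas SRSF2, HNRNPU and HNRNPDL did so at -0.219, -0.199 and -0.179. With the first principal component of all probe sets HNRNPU correlated at 0.592, HNRNPDL at 0.506, U2AF1L4 at -0.488, SRSF2 at 0.449 and PRPF31 at -0.320. The part of these array properties in the slopes was not tested beyond these settings.

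The slopes of all members were counted by sign within each class, as a description without a test. All 11 SR proteins had a negative slope, with a median of -0.045 log2 per SD of drip loss, as did 13 of 17 hnRNPs, with a median of -0.032. Among snRNP proteins 8 of 10 slopes were positive, with a median of 0.028. The U2-associated proteins divided into 4 negative and 5 positive slopes and the PRPF proteins into 6 and 3, with medians of 0.0069 and -0.0029. Over all 6765 genes 38.99% of slopes were negative and the median was 0.0080, and over the members 37 of 57 were negative with a median of -0.013. Since members of a class co-vary, their signs are not independent of each other.

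Among SR proteins SRSF5 had the steepest slope and SRSF7 the flattest. SRSF5 averaged 8.70 ± 0.48, 8.59 ± 0.46 and 8.53 ± 0.38 in the lower, middle and upper tertile (SD, n = 69 each), with a slope of -0.075 ± 0.030 that did not pass. SRSF7, which also acts in mRNA export, averaged 9.45 ± 0.36, 9.54 ± 0.31 and 9.43 ± 0.27, and its slope was -0.0018 ± 0.022. Of the remaining SR proteins, SRSF10, SRSF3 and SRSF6 had slopes between -0.055 and -0.047 that did not pass, and that of SRSF6 was -0.024 ± 0.023 with blocks.

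Among the hnRNPs HNRNPU lay at the negative end and HNRNPUL1, its relative, at the positive end. HNRNPUL1 averaged 8.95 ± 0.19, 8.92 ± 0.21 and 9.01 ± 0.17 over the tertiles (lower, middle, upper, SD, n = 69 each), with a slope of 0.017 ± 0.013 that did not pass. HNRNPA3 at -0.056 ± 0.023, HNRNPH3 at -0.053 ± 0.020 and HNRNPD, which binds AU-rich elements in mRNAs, at -0.052 ± 0.017 were close to HNRNPDL in slope and did not pass. The ubiquitous HNRNPK, HNRNPC and HNRNPM, at 0.013 ± 0.014, 0.0064 ± 0.015 and 0.0018 ± 0.016, lay near 0.

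Among snRNP proteins SNRPG, a member of the Sm ring that encircles the small nuclear RNAs, had the largest slope. It had values of 8.52, 9.54 and 10.18 and tertile means of 9.46 ± 0.30, 9.47 ± 0.27 and 9.54 ± 0.25 (lower, middle and upper, SD, n = 69 each). Its slope was 0.052 ± 0.019 (SE, n = 207, limma adjusted p = 0.0894), and its second probe set had a slope of 0.046 ± 0.017. The U1 proteins SNRPC at 0.029 ± 0.011 and SNRPA at 0.0071 ± 0.018, the Sm proteins SNRPF at 0.033 ± 0.016 and SNRPB at 0.027 ± 0.012, and SNRPN, the imprinted relative of SNRPB, at 0.037 ± 0.018 pointed the same way without passing. SNRPA1, a U2 snRNP protein, was the exception at -0.024 ± 0.015, with tertile means of 7.94 ± 0.20, 7.88 ± 0.21 and 7.88 ± 0.22, and SNRPD1 lay at -0.0013 ± 0.018.

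Among the U2-associated proteins the slopes of subunits of 1 complex differed in sign, and no SF3a or SF3b subunit passed. SF3B4 had the most negative slope at -0.048 ± 0.017, with values of 6.17, 6.73 and 7.54 and tertile means of 6.80 ± 0.26, 6.77 ± 0.24 and 6.70 ± 0.25 (lower, middle and upper, SD, n = 69 each). SF3B5, of the same SF3b complex, had a slope of 0.042 ± 0.014. Neither passed. SF3A3 lay at 0.025 ± 0.0091 and SF3A1 at -0.028 ± 0.023. With blocks SF3A1 lay at -0.0078 ± 0.022 and without the low-correlation arrays at 0.0050 ± 0.019, whereas SF3B4 and SF3B5 kept their signs in both. U2AF2, the large U2AF subunit that binds the polypyrimidine tract, lay at 0.0069 ± 0.015 and SF3B1, the branch point clamp, at -0.036 ± 0.021. Of the PRPF proteins PRPF39, associated with the U1 snRNP, had the most negative slope at -0.042 ± 0.020, with values of 5.56, 6.54 and 7.50 and tertile means of 6.59 ± 0.30, 6.55 ± 0.29 and 6.52 ± 0.29, and it did not pass.

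**Figure D3:**
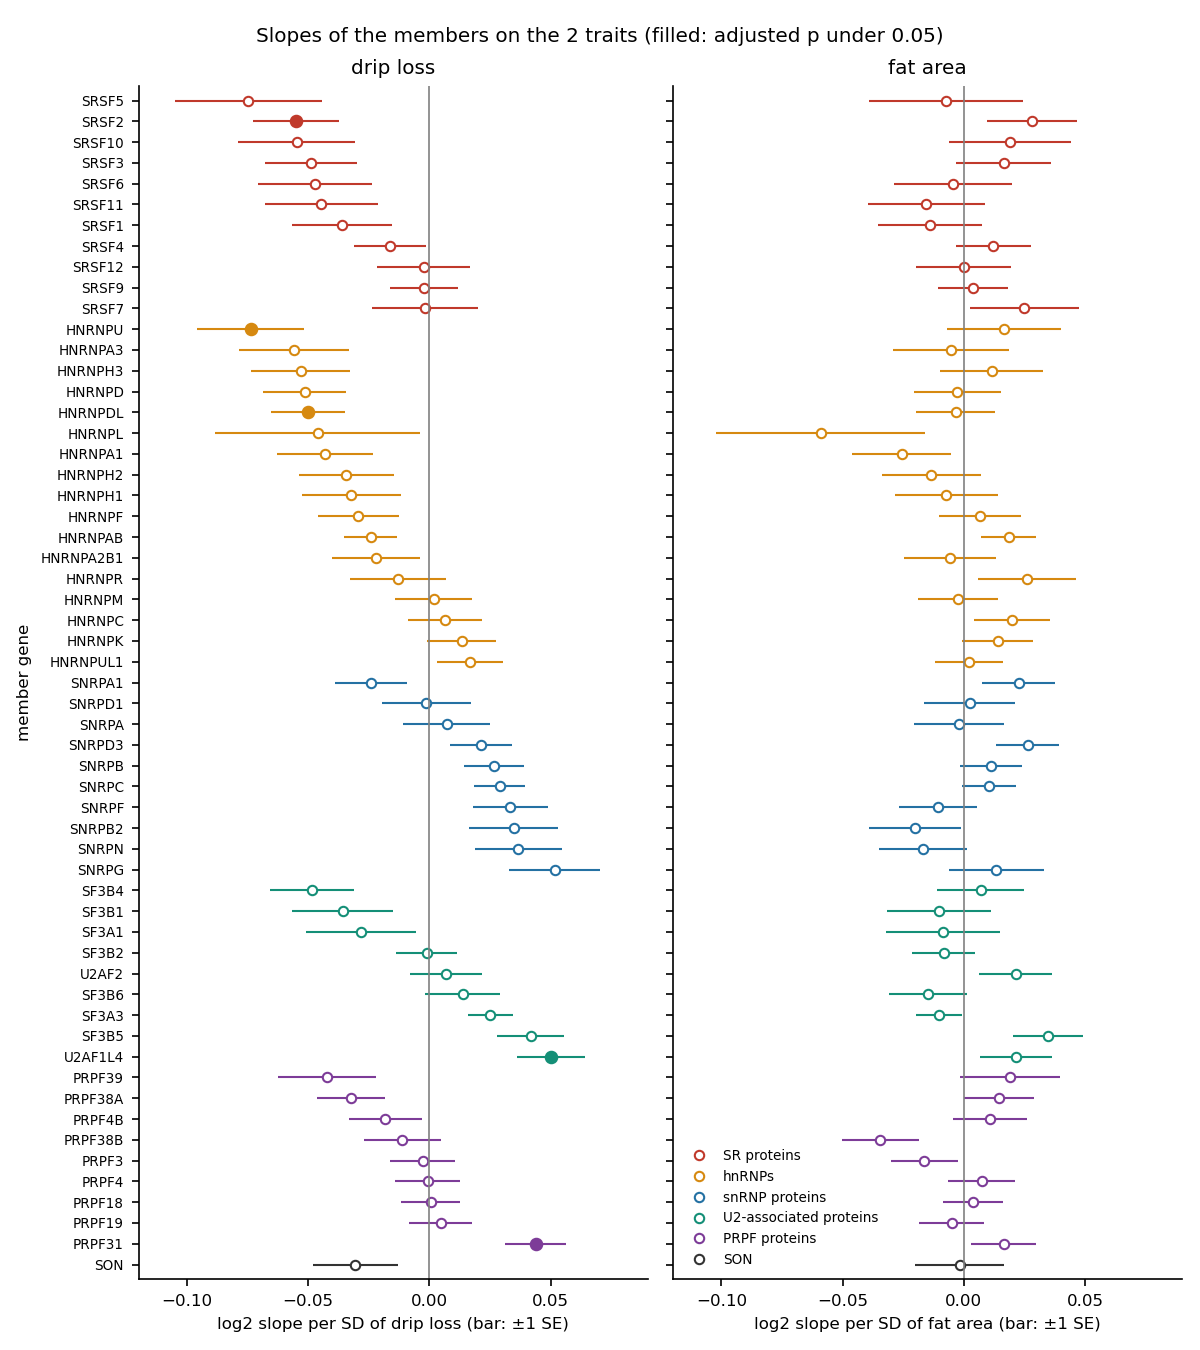
Limma slopes of the 57 members, in log2 units per SD of the trait, on drip loss (left) and fat area (right), grouped by class and ordered by the drip loss slope, with bars of 1 SE and filled dots where the adjusted p was under 0.05. For drip loss all 11 SR proteins lie left of 0 and 8 of 10 snRNP proteins right of it, and for fat area no dot is filled.

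The contrast between classes was followed per animal, with a measure chosen after the slopes were seen and therefore given without a test. The mean log2 value of the SR proteins and hnRNPs minus that of the snRNP proteins was 0.36 ± 0.18 in the lower, 0.31 ± 0.19 in the middle and 0.27 ± 0.15 in the upper tertile of drip loss (SD, n = 69 each). Its slope was -0.053 ± 0.012 log2 units per SD of drip loss (SE, n = 207), with r = -0.296 and rho = -0.286. Leaving out the 2 animals with the most extreme drip loss gave r = -0.285.

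The relation was -0.273 in the lower series of title numbers, -0.492 in the higher (n = 33), -0.228 within blocks and -0.290 without the low-correlation arrays. The difference also moved with the arrays, at r = -0.291 with the array's median correlation, which became -0.076 without the 24 arrays, and at 0.652 with the first principal component of all probe sets. Its correlation with the 3′ minus 5′ signal of control transcripts, a measure of RNA integrity and labelling, was 0.113. With blocks in the fit 11 SR proteins, 13 hnRNPs and 1 snRNP protein kept or took a negative slope, and without the low-correlation arrays 10, 16 and 2 did.

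Immediate early genes, whose transcription is induced rapidly by stimuli, moved with the same difference. Of 26 measured, 18 fell with drip loss and 0 rose, against 2.11% of all genes that fell. Of the 18, 14 still passed with blocks and 14 without the low-correlation arrays, and JUN, KLF2, NR4A3 and BTG2 passed in neither. The mean of the list correlated with the SR and hnRNP minus snRNP difference at r = 0.440 (n = 207). It correlated with the SR mean at 0.397, with the hnRNP mean at 0.278 and with the snRNP mean at -0.169. Lists of other splicing regulators (0.671) and of SR protein kinases, phosphatases and import factors (0.453) correlated more with the difference. Those of exon junction, export and 3′ end processing (0.277) and of other spliceosome proteins (0.116) did so less. The difference and the lists were chosen with drip loss results known, so these correlations are a description. Among marker lists the difference correlated most with 2 satellite cell markers (0.411) and 3 nerve and Schwann cell markers (-0.366). The 2 satellite cell markers had an r of 0.029 with each other, and the nerve and Schwann cell markers a median r of 0.127. Their means therefore need not follow 1 cell type. The difference correlated at -0.054 with the 9 skeletal muscle, -0.133 with the 5 adipocyte, -0.115 with the 9 lymphocyte and -0.030 with the 8 endothelial markers. With the 5 macrophage, 5 fibroblast and 3 blood cell markers it did so at -0.025, -0.0061 and 0.053. Of all these markers CCL5, a lymphocyte chemokine, rose with drip loss and ENG, an endothelial receptor, fell, and the rest did not pass. Neither passed with blocks (limma adjusted p = 0.124 and 0.203) or without the low-correlation arrays (limma adjusted p = 0.368 and 0.139). All 9 lymphocyte slopes on drip loss were positive. Of the 8 endothelial slopes 4 were negative and 4 positive, between -0.068 and 0.071, and the endothelial mean had r = -0.022 with drip loss. The part of these genes in the slopes of the splicing factors was not tested.

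Probe sets of the same gene did not always report the same relation. Of the 57 genes 20 had several probe sets, and in 7 of them (HNRNPA2B1, HNRNPC, HNRNPK, HNRNPR, SRSF6, SRSF10 and SRSF11) the drip loss slopes had opposite signs. The median correlation between probe sets of a gene ran from -0.097 for the 3 of PRPF38B to 0.861 for the 2 of HNRNPD. Which part of each transcript a probe set covers is not given in the sources used here.

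SON had 4 probe sets, all with a negative slope. The one with the highest level, at a mean of 10.71, had a slope of -0.031 ± 0.018 (limma adjusted p = 0.329) and did not pass. Its slope was -0.015 ± 0.018 with blocks and -0.0030 ± 0.014 without the low-correlation arrays. The second, at a mean of 6.60, ranged from 5.84 through 6.57 to 7.48 and averaged 6.71 ± 0.30, 6.59 ± 0.28 and 6.50 ± 0.25 over the tertiles (lower, middle, upper, SD, n = 69 each). Its slope was -0.091 ± 0.019 log2 units per SD (SE, n = 207, limma adjusted p = 0.0015), more steeply than any of the chosen probe sets. Among the member probe sets that passed, this one alone also passed with blocks, at -0.090 ± 0.020 (limma adjusted p = 0.0068), and without the low-correlation arrays, at -0.078 ± 0.019 (limma adjusted p = 0.0204), and its r with drip loss was negative in 10 of 10 blocks. The 4 SON probe sets correlated with each other between -0.0045 and 0.609.

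SRSF6, an SR protein that binds exonic enhancers, had 6 probe sets. The one with the highest level had a slope of -0.047 ± 0.023, while 2 others, at means of 7.95 and 7.74, fell by 0.078 ± 0.021 and 0.063 ± 0.020 (SE, n = 207, limma adjusted p = 0.0147 and 0.0407). The dimmest, at 5.84 and 5.39, had slopes of 0.0067 ± 0.014 and 0.022 ± 0.020. With blocks in the fit the 2 that passed reached an adjusted p of 0.197 and 0.344. Over all 35 further probe sets of the members 3 fell, 1 of SON and these 2 of SRSF6, and 0 rose. Of the 23935 tested probe sets 4.61% passed, 2.67% lower and 1.94% higher. The 3 come from 2 genes, so their count is no result about the members as a set.

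**Figure D4:**
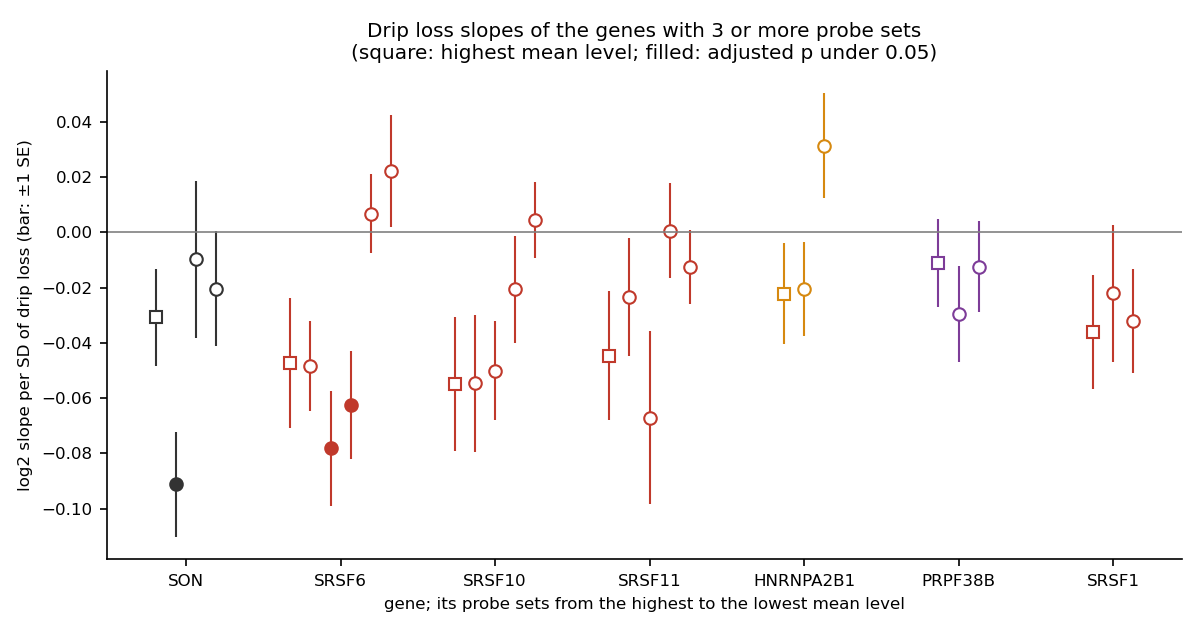
Limma slopes on drip loss, in log2 units per SD with bars of 1 SE, of every probe set of the members with 3 or more, ordered from left to right within a gene by mean level; squares are the probe sets with the highest level and filled symbols have an adjusted p under 0.05. One SON and 2 SRSF6 probe sets other than the brightest are filled, and the dimmest SRSF6 probe sets lie above 0.

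Fat area was the second comparison, and no member tracked it. Of 57 genes 0 passed in limma, as did 0 of the 92 probe sets. Over all genes 0.148% passed (0.0296% higher, 0.118% lower) and over all probe sets 0.121% (0.046% higher, 0.0752% lower). At an unadjusted p under 0.05 there were 2 members higher and 1 lower. At this threshold a few of 57 genes would pass without any relation to fat area. These counts are therefore no result about the members as a set. SF3B5 had a slope of 0.035 ± 0.014 log2 units per SD of fat area and the lowest adjusted p, 0.580, SNRPD3 one of 0.026 ± 0.013, and PRPF38B one of -0.034 ± 0.016. The negative and positive slopes numbered 27 and 30, and the median was 0.0024, against -0.0015 over all genes. Per class the medians lay between -0.0083 for the U2-associated and 0.0074 for the PRPF proteins, and 5 of 11 SR proteins had a negative slope.

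HNRNPL had the largest slope on fat area at -0.059 ± 0.043, within 2 SE of 0. In a fit with both traits the slopes on drip loss and fat area were compared for each member. The difference passed for 0 of 57 members, against 0.591% of all genes, and the lowest adjusted p was 0.144, for SRSF2, with a difference of -0.075 ± 0.025 (drip loss minus fat area). A product of both traits passed for 0 members and for 0 genes.

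Levels of the members rose and fell together across animals more than those of typical genes. The median Pearson r over the 1596 pairs of members was 0.168, with a range of -0.553 to 0.818, against a median of 0.0059 over all pairs of the 6765 genes. All pairs share the same 207 arrays, and each r therefore includes whatever differed between arrays. With blocks removed the median was 0.168, without the low-correlation arrays 0.158 and with 5 principal components removed 0.120, and it was 0.085 after quantile normalization. With the first 3 of these settings the median over all genes stayed at or below 0.0063, and after quantile normalization it was not computed. Most members also lay above the median level of all probe sets, and pairs of genes matched for level were not examined. Of the pairs, 838 had a positive and 243 a negative r with an adjusted permutation p under 0.05. By rho 809 were positive at that level. Pairs of other genes were not permuted, so these counts have no share over all gene pairs beside them. With 207 shared arrays small r can pass, and the counts alone do not set the members apart. The quartiles of r were -0.0431 and 0.393 among members, against -0.0993 and 0.120 over all gene pairs. For comparison, the median was 0.585 among 61 cytosolic ribosomal proteins and 0.281 among 33 proteasome subunits.

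The SR proteins and hnRNPs correlated within and between their classes. The median r was 0.359 among SR proteins, 0.373 among hnRNPs and 0.346 between them, and their class means of standardised values correlated at r = 0.834 (rho = 0.810). The snRNP proteins had a median r of 0.323 among themselves and of 0.072 with SR proteins and 0.102 with hnRNPs. With 5 principal components removed the medians were 0.162, 0.178 and 0.279 within SR proteins, hnRNPs and snRNP proteins. Between classes they were then 0.134 for SR proteins with hnRNPs, 0.127 for SR proteins with snRNP proteins and 0.051 for hnRNPs with snRNP proteins, so that the SR proteins were about as close to the snRNP proteins as to the hnRNPs. U2-associated proteins had no common course, with a median of -0.021.

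**Figure D5:**
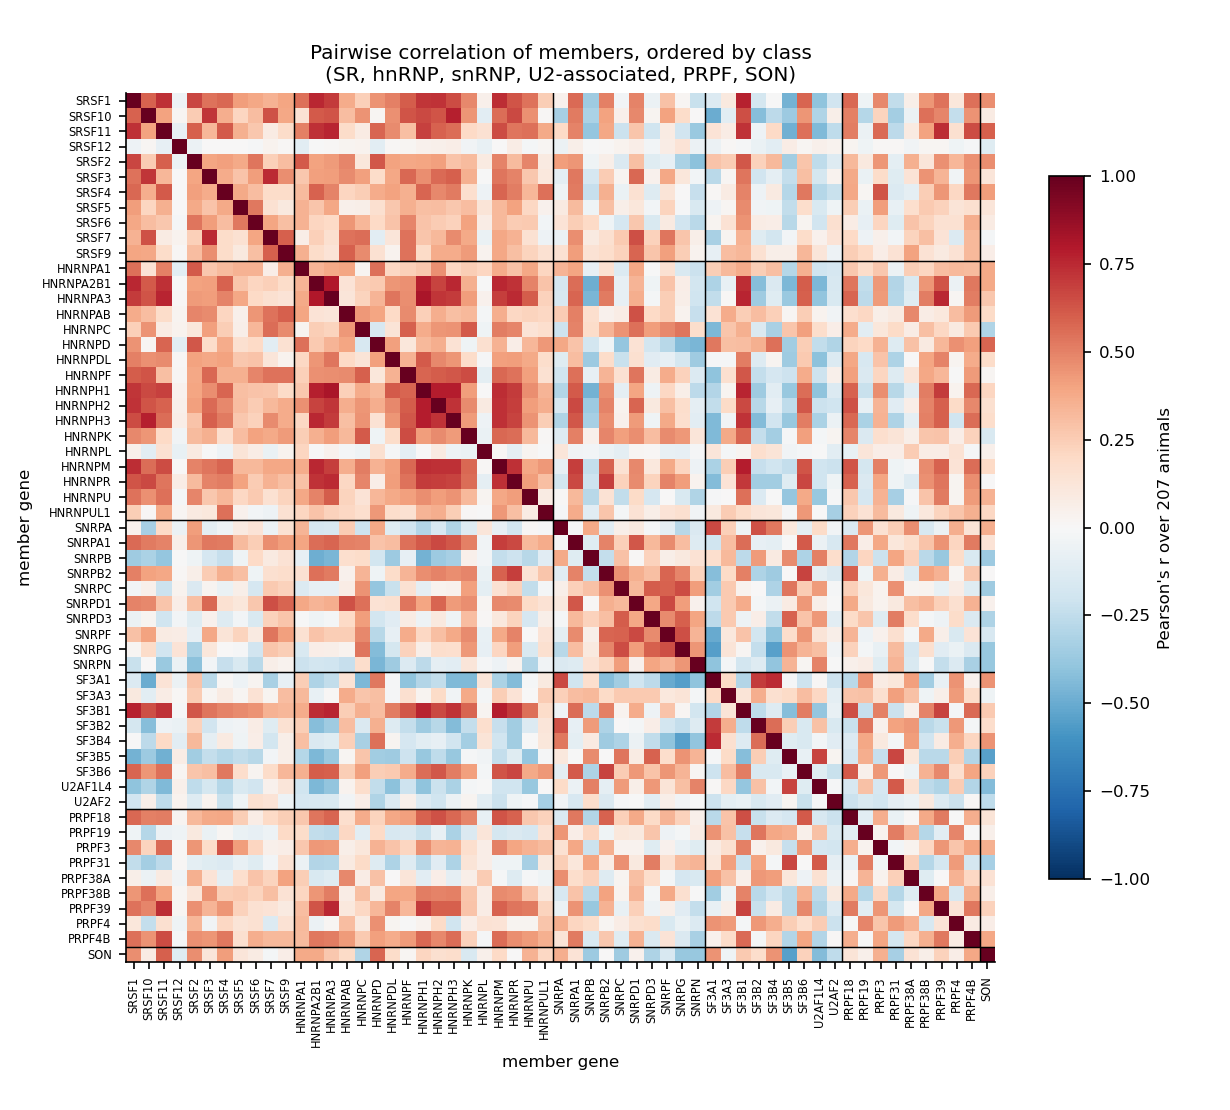
Pearson's r over 207 animals for every pair of the 57 members, ordered by class and separated by black lines, from blue at -1 to red at 1. The SR and hnRNP block in the upper left is mostly red, apart from the nearly white rows of SRSF12 and HNRNPL, and SF3A1, SF3B2 and SF3B4 are blue against many snRNP proteins and hnRNPs.

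The 6 closest pairs involved hnRNPs. They were HNRNPA3 with HNRNPH1 (r = 0.818, rho = 0.793), HNRNPA2B1 with HNRNPA3 (0.803, rho = 0.781), HNRNPH1 with HNRNPH3 (0.787, rho = 0.743), HNRNPM with SF3B1 (0.786, rho = 0.756), HNRNPH1 with HNRNPH2 (0.781, rho = 0.757) and HNRNPA2B1 with HNRNPH1 (0.780, rho = 0.773). Each had a permutation p of 1e-05, which is the smallest possible with 100000 permutations, or 2.51e-05 when adjusted over the 1596 pairs. Within blocks these r lay between 0.767 and 0.820, and without the low-correlation arrays between 0.711 and 0.781. HNRNPH1, HNRNPH2 and HNRNPH3, like HNRNPA2B1 and HNRNPA3, are paralogs, and cross-hybridisation between their probes was not tested.

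The 4 most opposed pairs joined U2-associated proteins with small subunits or with SON. SF3A1 ran against SNRPG (r = -0.553, rho = -0.388) and SNRPF (-0.505, rho = -0.473), SF3B4 against SNRPG (-0.546, rho = -0.428), and SF3B5 against SON (-0.539, rho = -0.430), each with an adjusted permutation p of 2.51e-05. Without the 2 animals farthest in the first gene r lay between -0.533 and -0.499, within blocks between -0.515 and -0.473, and without the low-correlation arrays between -0.50 and -0.45. All 4 were more negative in the higher series of title numbers (n = 33), at -0.680 to -0.793, than in the lower, at -0.454 to -0.503; this difference between the series was not tested.

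Some members of the same class tracked each other closely, and these pairs were named after their values were seen. In the U2-associated class SF3A1 correlated with SF3B4 (r = 0.743, rho = 0.685) and SF3B2 (0.701, rho = 0.656), whereas SF3B1 ran against SF3B5 at -0.425. The SR proteins SRSF3 and SRSF7, which are close relatives, had r = 0.748, and SRSF1 and SRSF11 had 0.733. Among the snRNP proteins the Sm proteins SNRPD1 and SNRPF reached 0.656 and SNRPC and SNRPG 0.652, and SNRPA ran against SNRPG at -0.280.

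The member closest to the common course was HNRNPM, which correlated with the mean of the other standardised members at r = 0.792, followed by SNRPA1 (0.787), SRSF1 (0.752) and HNRNPH2 (0.751). Farthest from it were U2AF2 (-0.190), SNRPN (-0.138), SF3B5 (-0.135) and SF3A1 (-0.132). The first principal component of the members held 29.6% of their variance and the second 13.6%. The mean over all members had a slope of -0.033 ± 0.030 SD units per SD of drip loss (r = -0.077) and of 0.016 ± 0.031 per SD of fat area (SE), and it correlated at r = 0.741 with the first principal component of all probe sets.

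Outside the members, the genes most like their mean over the 207 animals were EIF2S1, a subunit of the initiation factor that brings the initiator tRNA (r = 0.774), the chaperonin subunits CCT8 (0.765) and CCT2 (0.761), RRP15 of ribosome assembly (0.761), SSB, the La protein that binds new RNA ends (0.751), RAP1B (0.749), MORF4L2 (0.742) and ACO1 (0.728). The most opposed were TAB1 (-0.619), FAM107B (-0.607), SLC25A48 (-0.605) and PTOV1 (-0.580). The brightest SON probe set had a different company, led by INTS3 (0.790) and the chromatin remodeller CHD7 (0.790), then ORM1 (0.788), SRRM1 (0.784), RNF149 (0.776) and RBM25 (0.769). SRRM1 and RBM25 also carry arginine and serine rich domains and act in splicing. These are likenesses over shared arrays, given without a test.

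Other genes of the splicing pathway were taken from lists. Among 12 kinases, phosphatases and import factors of SR proteins 0 passed for drip loss. At an unadjusted p under 0.05, 0 of the 12 were higher and 1 lower, against 15.8% higher and 8.04% lower over all genes. The kinases DYRK1A and CLK4, which phosphorylate SR proteins, had the smallest p, with slopes of -0.040 ± 0.016 (limma adjusted p = 0.136) and -0.038 ± 0.020 (limma adjusted p = 0.268). A further list of 54 genes held spliceosome proteins together with other Lsm proteins and factors of snRNP assembly. Of these 54 genes 4 rose and 2 fell, and 19 slopes were negative. Over all genes 3.96% rose and 2.11% fell. The rising ones were LSM7, of the Lsm ring of U6 and of mRNA decay (0.037 ± 0.0092, limma adjusted p = 0.0094), GEMIN6, which assembles Sm rings (0.071 ± 0.021, limma adjusted p = 0.0267), TXNL4A of the tri-snRNP (0.048 ± 0.014, limma adjusted p = 0.0321) and LSM12 (0.043 ± 0.014, limma adjusted p = 0.0466).

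The falling ones were SMNDC1, a relative of the SMN protein (-0.066 ± 0.017, limma adjusted p = 0.0096), and the disassembly helicase DHX15 (-0.064 ± 0.018, limma adjusted p = 0.0194). Of 42 other splicing regulators BCLAF1, an RS-domain protein, fell (-0.088 ± 0.025, limma adjusted p = 0.0239), 0 rose and 30 slopes were negative, with a median of -0.016. Of 29 genes of the exon junction, export and 3′ end processing MAGOHB fell (-0.057 ± 0.019, limma adjusted p = 0.0499) and 0 rose. With blocks in the fit none of these 8 passed in limma, and without the low-correlation arrays LSM7 alone did, at 0.039 ± 0.0089 (limma adjusted p = 0.0078). For fat area ZRSR2, a U2AF-related factor of the minor spliceosome, fell by 0.083 ± 0.018 log2 units per SD (SE, limma adjusted p = 0.0094), and 0 other genes of these 4 lists passed.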

How the data were processed

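The authors hybridised muscle total RNA of each animal, as biotinylated cRNA, to 1 Affymetrix Porcine Genome Array, and per the submitters' processing notes used GCOS 1.1.1 and PLIER. The deposited values are log2 values per probe set from 4 to 15.32, where 4 is a floor. They were used without renormalization, and whether the authors scaled the arrays to each other is not given in the sources used here. Intensities on arrays carry no counts, so precision is limited by how many arrays there are.

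The table holds 24123 probe sets. Without its 188 controls, 23935 were tested. Symbols were those of the array annotation, and all 57 member genes matched RefSeq genes by gene number with 0 changed symbols. Slopes of log2 values on a trait scaled to SD units were estimated with limma 3.58.1 (R 4.3.3; lmFit, then eBayes), two-sided, with Benjamini-Hochberg adjustment over all tested probe sets. A fit with both traits tested the difference of slopes and, with their product, the interaction. Member pairs were tested with 100000 permutations of the animals (NumPy 2.4.6, SciPy 1.17.1), adjusted over 1596 pairs. Tertiles of drip loss hold 69 animals each and serve as description. The pipeline was tested on simulated data.

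The members, the gene lists and the tests were chosen with earlier results of these data known. Any member could be named. Values over animals and tertile means were given by rule for members that passed or had the largest or smallest slope of their class. Members whose probe sets had slopes of opposite sign were also named by rule. Lists gave up to 4 passing genes per direction or, with none, the 2 with the smallest p. Likeness gave the 8 highest and 4 lowest correlations with the member mean and the 6 highest with SON. The 6 highest and 4 lowest member pairs were named as well. Alternatives were quantile normalization, only probe sets above the median level, title-number blocks of 100 or series as covariates, 5 principal components, without low-correlation arrays, without the 13 arrays lacking spike-in signal, the 3′ minus 5′ control signal or the other trait as a covariate, leaving out the 2 animals with the most extreme trait, normal scores, eBayes with trend and robust, the mean of a gene's probe sets, and adjustment over 1 probe set per gene. After seeing the data, blocks together with leaving out the low-correlation arrays were added.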

Additional observations from a re-analysis of the deposited data

How the results depend on the processing

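No paired analysis was possible because all animals form 1 group and carry no shared replicate numbers. For drip loss, 2 members rose and 3 fell. With blocks as a covariate, with 5 principal components, without the low-correlation arrays, and with blocks and without those arrays together, 0 rose and 0 fell, while 0.623%, 0.0543%, 0.831% and 0.355% of all probe sets passed in limma. Quantile normalization gave 5 that rose. The number that fell was 1 with the 3′ minus 5′ difference as a covariate, 1 without the 2 farthest animals and 1 with fat area in the fit. In these last 3 settings PRPF31 and U2AF1L4 still passed. The median slope on drip loss was -0.0031 and the slope of the member mean 0.0053 with 5 principal components, against -0.013 and -0.033, and the median slope on fat area was 0.012 with 5 principal components, against 0.0024. The median pairwise correlation was 0.085 after quantile normalization, against 0.168. No slope of a member that passed changed sign in any setting, but with 5 principal components these slopes lay between -0.031 and 0.013, with limma adjusted p of 0.740 to 0.918. The causes of these changes were not tested. Slopes near 0.05 log2 units per SD lie close to what 207 arrays can resolve, since the SE of the members was 0.0091 to 0.042, and a member that did not pass is not shown to be unrelated to drip loss.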
